A study of Mus musculus with 6 samples.

Results

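The genes described here are 36 mouse genes of fatty acid oxidation and of the switch between glucose and fat as fuel, chosen by symbol, out of 55484 genes in the deposited tables. All 36 symbols had 1 row each, and the authors' program tested 34 of them. The RNA was from the femurs of 6 wild-type C57BL/6 males fed normal chow, 3 that could use a running wheel in their cage (labelled ND/WCR, treatment NW) and 3 kept in a cage with no wheel (ND/SED, treatment NS). Every mouse entered its cage at 6 weeks of age, lived there alone for 6 weeks and gave its bone at 12 weeks. The comparison asks how voluntary running changed transcripts of the femur, and the series title asks about glucose metabolism in the response of osteocytes to loading. No running distance is stated in the labels.

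Mitochondria burn fatty acids by taking them in on a carnitine carrier and shortening them in repeated rounds of dehydrogenation, hydration, a further dehydrogenation and thiolytic cleavage. Pyruvate from glucose enters through the pyruvate dehydrogenase complex, which the pyruvate dehydrogenase kinases switch off, so that a rise of a kinase is a known mark of fat use in place of glucose in fasted or exercised muscle. Bone-forming cells and osteocytes also use fatty acids, and marrow fat cells lie beside them.

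Each gene had 1 pooled level per group, in FPKM, with the authors' interval around it, and no value of a single mouse. FPKM divides fragments by transcript length and library size, so that levels can be compared between genes. No SD can therefore be given, and a call below means q under 0.05 in the authors' deposited table. Log2 folds compare running with sedentary mice, as log2(FPKM + 0.1), so changes of low genes come out too small. The worth of 1 fragment in the lowest values gave estimated depths of 13800000 to 17300000 fragments per running library and of 14300000 to 16400000 per sedentary library. For genes at 10 FPKM or more, the authors' interval reached a median of 26.1% to either side of the value in running mice and 26.3% in sedentary mice. Bone markers were high in both groups, with Bglap, the osteocalcin gene, at 3184 FPKM in running and 3157 FPKM in sedentary mice. The neutrophil marker S100a9 was also high, at 17114.5 FPKM in running and 20406 FPKM in sedentary mice.

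Pdk4 rose in the running mice by the authors' test, and it was the only one of the 34 tested members that passed it. Pdk4 encodes the pyruvate dehydrogenase kinase that fasting, fatty acids and glucocorticoids induce in muscle and other tissues. It lies on the minus strand of chromosome 6, 5483351 to 5496309 (GRCm38; ENSMUSG00000019577), and overlaps no other annotated gene. Its level was 27.4 FPKM (interval 22.0 to 32.9) in running mice and 20.2 FPKM (interval 16.1 to 24.2) in sedentary mice, a ratio of 1.36 and a log2 fold of 0.44. The intervals overlapped between 22.0 and 24.2 FPKM. In the authors' deposited table its p was 0.0002 and its q 0.0237, from a test statistic of 2.18. Read as a normal score, that statistic would give a two-sided p of 0.0294 and, with Benjamini-Hochberg adjustment over all tested genes, a q of 1, which ends the call. The call also ends at a q threshold of 0.01 or where separate intervals are required. The threshold of 0.01 keeps only the 108 tested genes that shared the smallest deposited q, 0.00718. No source used here states how the deposited p follows from the statistic. Across all 15508 tested genes, 0.941% were called in either direction, 0.445% higher and 0.497% lower. Of the 69 genes called higher, 3 had a smaller log2 fold than Pdk4.

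Markers of other cell types moved in the same libraries. Of 9 tested adipocyte genes, 4 were called higher (Adipoq, Fabp4, Cfd and Pck1), and the 10 listed genes summed to 502 FPKM in running and 345 FPKM in sedentary mice. Of 16 fast skeletal muscle genes, 4 were called higher (Myh1, Myh2, Tcap and Ryr1), and their sum was 2772 FPKM in running and 2329 FPKM in sedentary mice. The 12 neutrophil genes, none called, summed to 46701 FPKM in running and 54743 FPKM in sedentary mice. No adipocyte, muscle or neutrophil marker was listed at 0; Lep stood at 0.0995 and 0.160 FPKM in the running and sedentary groups. Of 10 osteocyte and osteoblast genes, Mepe and Sost were called higher, and the sum was 6005.5 FPKM in running and 5599 FPKM in sedentary mice. Among 8 monocyte and macrophage genes, Ccr2 was called lower and 6 had positive log2 folds. Their sum was 655 FPKM in running and 626 FPKM in sedentary mice. No erythroid, endothelial or slow muscle marker was called. Of 6 brown adipocyte genes 2 were tested and none called; Ucp1 had 0.0874 FPKM in running mice and was listed at 0 in sedentary mice. Muscle and fat both express Pdk4, and the part of these cells in its rise was not tested. In whole bone, more or fewer cells of a type and more or less RNA per cell cannot be told apart.

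The bases before the Pdk4 start site are shown together with those of Klf15, a transcription factor gene described below that was also called higher. Each is the stretch of 250 bases upstream of the RefSeq start (GRCm38.p6), chr6:5496279-5496528 on the minus strand for Pdk4 and chr6:90462326-90462575 on the plus strand for Klf15. The GENCODE coordinates of Pdk4 given above reach 5496309, so the end of its window nearest the RefSeq start lies inside the GENCODE gene. Capitals mark matches, on either strand, to any of 6 motifs. Those searched were the nuclear receptor motif AGGTCA, the E-box motif CACGTG, the nuclear factor Y motif ATTGG, the zinc finger factor Sp motif GGGCGG, the forkhead factor motif TGTTTAC and the glucocorticoid receptor motif AGAACA.
Pdk4: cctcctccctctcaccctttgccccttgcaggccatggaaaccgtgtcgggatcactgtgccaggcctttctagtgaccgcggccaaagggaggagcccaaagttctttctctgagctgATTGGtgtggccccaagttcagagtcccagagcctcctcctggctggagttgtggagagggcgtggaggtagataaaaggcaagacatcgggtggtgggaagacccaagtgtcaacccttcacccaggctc
Klf15: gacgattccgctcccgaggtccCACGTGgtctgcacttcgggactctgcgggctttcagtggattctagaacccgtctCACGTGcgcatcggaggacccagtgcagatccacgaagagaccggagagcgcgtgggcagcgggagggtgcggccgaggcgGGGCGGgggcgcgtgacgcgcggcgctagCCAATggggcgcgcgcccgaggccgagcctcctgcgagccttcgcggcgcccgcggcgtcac

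The Pdk4 window held 1 ATTGG, its first base 131 bases before the RefSeq start, and none of the other 5 motifs. The Klf15 window held the E-box motif 2 times, the Sp motif 1 time and the nuclear factor Y motif 1 time, on the other strand. It held no nuclear receptor, forkhead or glucocorticoid receptor motif. Over the 32851 windows of the same length in the promoter table, 33.8% held the nuclear factor Y motif, 32.7% the Sp motif, 6.02% the E-box motif, 14.02% the nuclear receptor motif, 16.1% the glucocorticoid receptor motif and 3.17% the forkhead motif. No matches overlapped each other, and a match is a run of letters, not a bound site. AGGTCA and AGAACA are each only a part of a full receptor site. The only motif present in both windows is thus also present in 33.8% of windows at large.

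The other pyruvate dehydrogenase kinases were not called. Pdk1, which hypoxia induces, stood at 18.2 FPKM (12.4 to 24.0) in running and 16.0 FPKM (10.7 to 21.2) in sedentary mice. Pdk2, the most widely expressed of the family, stood at 9.91 FPKM (7.44 to 12.4) and 8.36 FPKM (6.15 to 10.6) in running and sedentary mice. Pdk3 was the 1 kinase with a negative log2 fold, at 18.3 FPKM (13.9 to 22.8) in running and 20.1 FPKM (15.1 to 25.2) in sedentary mice. Together the 4 kinases summed to 73.9 FPKM in running and 64.6 FPKM in sedentary mice. Pdk4 made up 37.1% of that sum in running mice and 31.2% in sedentary mice, where it was level with Pdk3 at 31.1%. In the running group Pdk3 made up 24.8%, Pdk1 24.6% and Pdk2 13.4%, and in the sedentary group Pdk1 made up 24.7% and Pdk2 12.9%. The share of Pdk4 thus differed by 5.96 percentage points, and taking opposing bounds of the authors' intervals it could lie anywhere from -16.0 to 27.4 points.

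**Figure D1:**
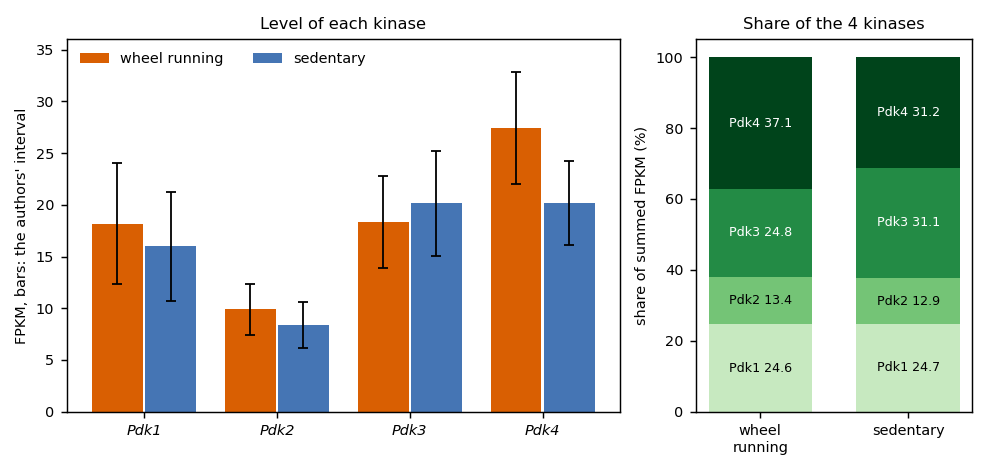
Left, FPKM of the 4 pyruvate dehydrogenase kinase genes in wheel running (orange) and sedentary (blue) mice, 1 pooled value per group of 3 mice, with the authors' interval as error bars. Right, the share of each kinase in their summed FPKM, in percent; Pdk4 holds 37.1% in running and 31.2% in sedentary mice.

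No gene for the target of these kinases, or for its supply of pyruvate, was called. In a list of 11 genes for pyruvate entry and the pyruvate dehydrogenase complex, none had an unadjusted p under 0.05 in the authors' deposited table. The list median log2 fold was 0.03, against -0.01 over all tested genes. Pdhb, a subunit of the complex and the most expressed gene of the list, stood at 69.1 FPKM in running and 71.4 FPKM in sedentary mice. The phosphatase genes Pdp1 and Pdp2, whose products switch the complex back on, stood at 4.28 and 1.86 FPKM in running mice and at 4.45 and 1.83 FPKM in sedentary mice. Mpc1, a subunit of the mitochondrial pyruvate carrier, stood at 53.7 FPKM in running and 47.4 FPKM in sedentary mice, a log2 fold of 0.18 that did not pass the test.

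Across the remaining members, differences were small and none was called. All 33 members that were tested and not called had a q of 0.9997 in the authors' deposited table, and the smallest unadjusted p among them was 0.0854 (Pdk2). The count of members with an unadjusted p under 0.05 was 1 (Pdk4), where 5.65% of all tested genes had one. No member had separate intervals in the running and sedentary groups. Log2 folds of 32 of the 34 tested members lay within 0.25 of 0, as did those of 77.0% of all tested genes. The exceptions were Pdk4 and Ucp3. Positive log2 folds were found in 27 of 34 tested members, against 48.2% of all tested genes, and the member median was 0.09. All members come from the same cells and libraries, so this count is a description and not a test. A missed threshold does not show equal levels: at opposing interval bounds the ratio for Hadha, 1.01 as measured, could be as low as 0.61 or as high as 1.68.

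**Figure D2:**
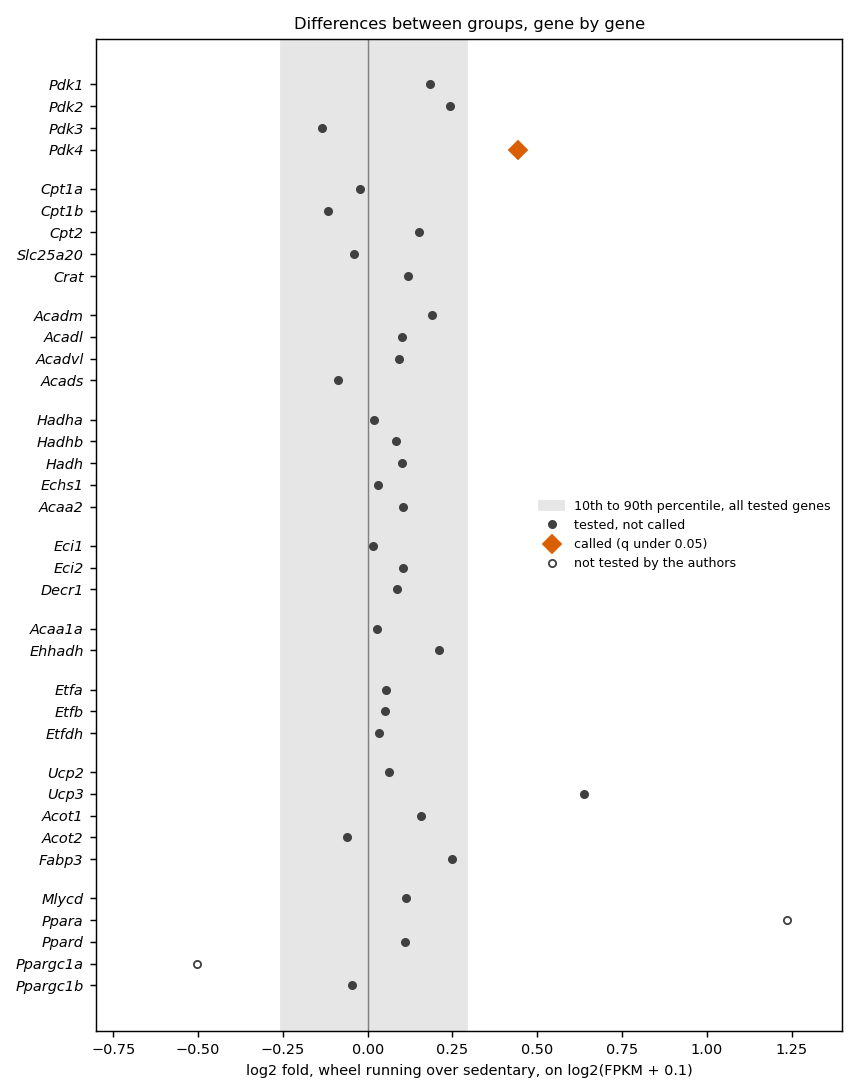
Log2 fold of each of the 36 genes, running against sedentary, as log2(FPKM + 0.1). The grey band spans the 10th to 90th percentile of all tested genes (-0.26 to 0.29). Pdk4 (0.44, orange) is the only call, Ucp3 lies at 0.64 uncalled, and Ppara and Ppargc1a (open circles) were not tested by the authors.

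The carnitine shuttle moves long-chain acyl groups into mitochondria, and none of its 5 genes was called. Cpt1a, the widely expressed form of the gatekeeper enzyme carnitine palmitoyltransferase 1, stood at 38.8 FPKM (31.2 to 46.4) in running and 39.4 FPKM (30.6 to 48.1) in sedentary mice. Cpt1b, the muscle form of the same enzyme, stood at 3.97 FPKM (0.465 to 7.47) and 4.31 FPKM (0 to 9.31) in running and sedentary mice. Cpt1a thus held 90.7% of the summed FPKM of both forms in running mice and 90.1% in sedentary mice. The Cpt1b value is uncertain, since 93.0% of the 50-base windows in its longest coding transcript also occur in Gm44502, an annotated gene on the same strand that covers it. Gm44502 stood at 0.505 FPKM in running and 0.408 FPKM in sedentary mice. Cpt2, which restores the acyl-CoA inside the mitochondrion, stood at 12.6 FPKM in running and 11.3 FPKM in sedentary mice. Slc25a20, the carnitine and acylcarnitine carrier, stood at 19.6 FPKM in running and 20.2 FPKM in sedentary mice. Crat, which handles short acyl groups, had 24.6 FPKM in running and 22.6 FPKM in sedentary mice. The median log2 fold of the 5 genes was -0.02. It turned to 0.02 once both groups were given an equal total FPKM, a step that also turned the signs of Cpt1a and Slc25a20. Over the genes of FPKM of at least 5 in a group, which leaves out Cpt1b, the median was 0.05.

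Acyl-CoA dehydrogenases carry out the first step of each round, split by chain length. Acadl, for long chains, was the most expressed of the 4, at 55.9 FPKM (45.4 to 66.4) in running and 52.1 FPKM (41.7 to 62.6) in sedentary mice. Acadm, for medium chains, had 41.4 FPKM (28.9 to 53.8) in running and 36.3 FPKM (27.3 to 45.2) in sedentary mice. Acadvl, for very long chains, had 34.6 FPKM in running and 32.4 FPKM in sedentary mice. Acads, for short chains, had 15.5 FPKM in running and 16.5 FPKM in sedentary mice and was the only one of the 4 with a negative log2 fold (-0.09). The order of the 4 levels was the same in both groups, and neighbouring intervals in that order overlapped except those of Acadvl and Acads.

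The hydratase, hydroxyacyl dehydrogenase and thiolase steps complete each round, and their 5 genes had log2 folds between 0.02 and 0.11. Hadha, the alpha subunit of the mitochondrial trifunctional protein, stood at 57.1 FPKM (42.8 to 71.4) in running and 56.4 FPKM (42.6 to 70.1) in sedentary mice. Hadhb, its beta subunit, stood at 35.5 FPKM in running and 33.5 FPKM in sedentary mice. These subunit genes lie next to each other on chromosome 5, head to head, with the minus-strand Hadha starting at 30155162 and the plus-strand Hadhb at 30155248. Acaa2, a thiolase, had 46.8 FPKM in running and 43.5 FPKM in sedentary mice. Hadh, for shorter hydroxyacyl chains, had 28.04 FPKM in running and 26.1 FPKM in sedentary mice, and Echs1, a hydratase for short chains, had 25.4 and 24.9 FPKM.

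Unsaturated chains need auxiliary enzymes, and their 3 genes were likewise uncalled. Eci2, an enoyl-CoA isomerase, had 44.4 FPKM (34.4 to 54.5) in running and 41.3 FPKM (32.0 to 50.6) in sedentary mice. Eci1, a second isomerase, had 21.1 FPKM in running and 20.9 FPKM in sedentary mice. Decr1, a dienoyl-CoA reductase, had 8.75 FPKM in running and 8.23 FPKM in sedentary mice. Among the peroxisomal enzymes, Acaa1a, a thiolase, had 33.4 FPKM (20.5 to 46.4) in running and 32.8 FPKM (19.0 to 46.6) in sedentary mice. It shares 34.0% of its 50-base windows with its near copy Acaa1b, which stood at 0.443 FPKM in running and 0.107 FPKM in sedentary mice. Ehhadh, a bifunctional peroxisomal enzyme that PPAR alpha induces in mouse liver, had 2.38 FPKM in running and 2.04 FPKM in sedentary mice.

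Electrons from the dehydrogenases pass through the electron transfer flavoprotein and its dehydrogenase. Etfb, the beta subunit, was the second most expressed member, at 188 FPKM (142 to 234) in running and 181 FPKM (140.5 to 222) in sedentary mice. Etfa, the alpha subunit, had 48.0 FPKM in running and 46.2 FPKM in sedentary mice, and Etfdh had 23.3 and 22.7 FPKM. The Etfb level was 3.92 times that of Etfa in either group. Of the Etfb windows, 67.3% also occur in the overlapping annotated gene Gm45233, and any division of fragments between the genes could affect the Etfb level. No level was found under the symbol Gm45233, and such a division was not tested. The 15 genes of mitochondrial oxidation and electron transfer from Acadm to Etfdh summed to 674 FPKM in running and 642 FPKM in sedentary mice, a ratio of 1.05.

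Ucp2 was the most expressed member, and it encodes a mitochondrial carrier that blood cells and macrophages express strongly. Its level was 842 FPKM (605.5 to 1078) in running and 806 FPKM (579 to 1033) in sedentary mice, which made up 46.3% and 46.7% of the summed FPKM of all members. Ucp3, its muscle relative, had 4.88 FPKM (0.162 to 9.61) in running and 3.11 FPKM (0.199 to 6.01) in sedentary mice. Its log2 fold of 0.64 was the largest among tested members, but at opposing interval bounds the ratio ranged from 0.027 to 48.2, and q in the authors' deposited table was 0.9997. Fabp3, the fatty acid carrier of heart and muscle, had 60.0 FPKM (30.4 to 89.6) in running and 50.4 FPKM (15.8 to 85.1) in sedentary mice. The fast muscle markers beside which these values stand summed to 2772 FPKM in running and 2329 FPKM in sedentary mice, and the 8 slow muscle markers, none called, to 432 and 402 FPKM.

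Acot1 and Acot2 encode acyl-CoA thioesterases of the cytosol and the mitochondrion and are near copies of each other. Acot1 had 4.27 FPKM (1.06 to 7.47) in running and 3.82 FPKM (0.809 to 6.83) in sedentary mice. Acot2 had 3.51 FPKM in running and 3.66 FPKM in sedentary mice. Acot1 shares 23.9% of its windows with Acot2, and the log2 folds of the pair, 0.16 for Acot1 and -0.06 for Acot2, were both uncalled.

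Regulators of the programme were low, and none was called. Ppard, a nuclear receptor for fatty acids, led this group at 9.19 FPKM (5.91 to 12.5) in running and 8.50 FPKM (5.64 to 11.4) in sedentary mice. Mlycd, which removes the inhibitor of carnitine palmitoyltransferase 1, malonyl-CoA, had 7.86 FPKM in running and 7.27 FPKM in sedentary mice. Ppargc1b, a coactivator of mitochondrial genes, had 1.30 FPKM in running and 1.34 FPKM in sedentary mice. Ppara, the main fatty acid sensing nuclear receptor of liver, had 0.678 FPKM (0 to 1.63) in running and 0.230 FPKM (0 to 1.03) in sedentary mice. Ppargc1a, the coactivator that exercise induces in muscle, had 0.293 FPKM (0 to 0.663) in running and 0.458 FPKM (0 to 1.05) in sedentary mice. The authors tested neither Ppara nor Ppargc1a. Both were below 1 FPKM with intervals reaching 0, so a change in them was not detectable here.

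**Figure D3:**
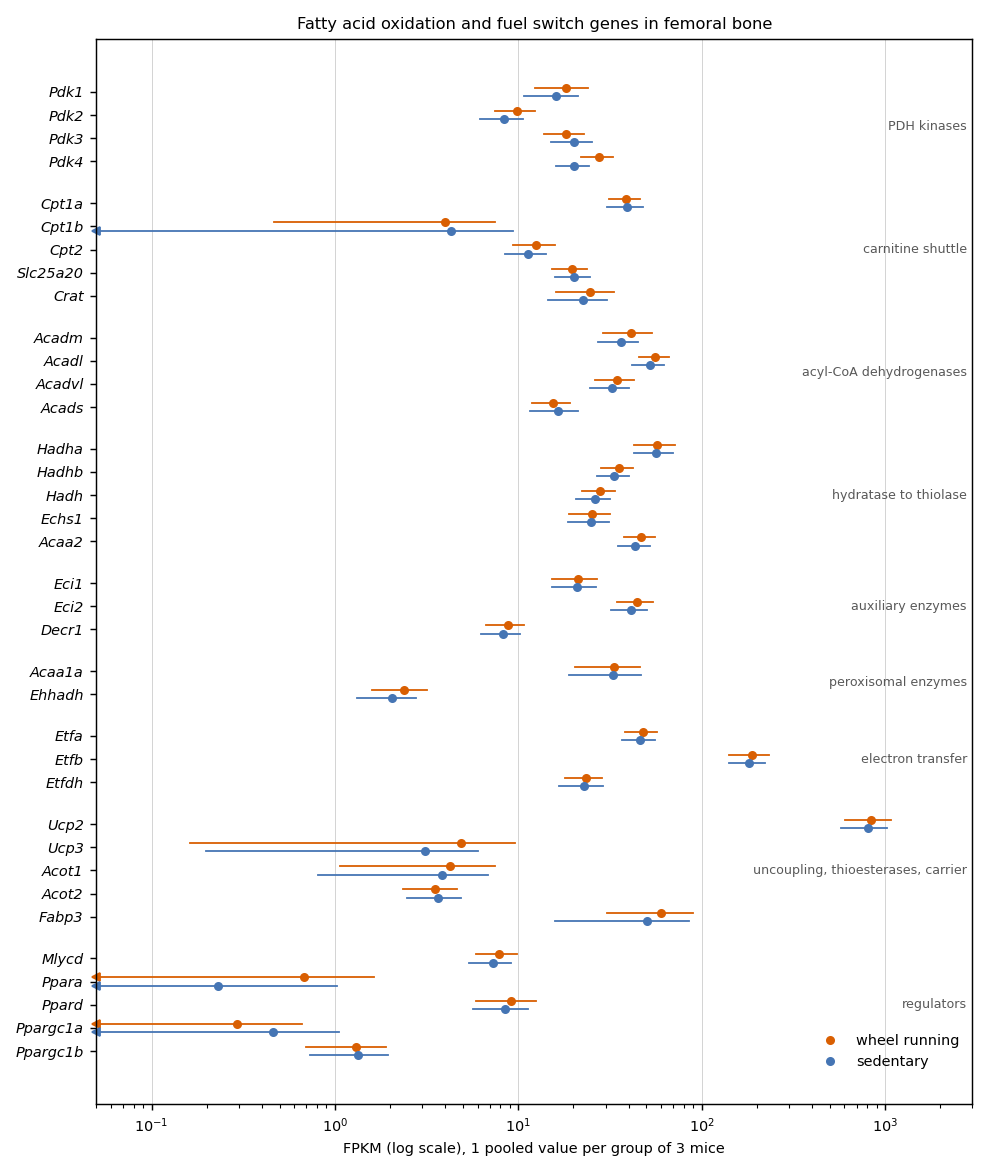
FPKM of the 36 genes on a log scale, by role, in wheel running (orange, upper point of each pair) and sedentary (blue) mice, with the authors' interval as a line; an arrowhead marks a lower bound below the axis. Levels run from 0.230 FPKM (Ppara, sedentary) to 842 FPKM (Ucp2, running), and the intervals of the groups overlap for every gene, Pdk4 included.

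Levels spread far more between members than between groups. In both groups 24 of 36 members stood at 10 FPKM or more, and 2 stood below 1 FPKM. Ranked by level, no member moved by more than 4 places between the groups, and it was Pdk4 that moved by 4, to rank 15 in running mice, against rank 19 in sedentary mice. Intervals reached more than 50% to either side of the value, in at least 1 group, for 6 members (Cpt1b, Ucp3, Acot1, Fabp3, Ppara and Ppargc1a).

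The rest of the pathway was read through 91 further genes in 8 lists, of which 86 were tested. By the authors' test Klf15 rose and none fell, and 4 of the 86 had an unadjusted p under 0.05 in the authors' deposited table, all higher. Of all tested genes, 5.65% had such a p in either direction and 3.42% had one and were higher. The call of Klf15 made up 1.16% of the 86. That stands beside 0.941% of all tested genes called in either direction and 0.445% called higher. The median log2 fold of the tested genes was 0.03. Klf15 (chromosome 6, 90462576 to 90475238) encodes a glucocorticoid-induced transcription factor that promotes fat and amino acid use in muscle. It had 3.54 FPKM (2.39 to 4.69) in running and 2.01 FPKM (1.23 to 2.80) in sedentary mice, a log2 fold of 0.78 with a statistic of 2.22 and a q of 0.00718 in the authors' deposited table. As with Pdk4, the intervals of the groups overlapped, and the call is lost, with a q of 1, when the statistic is read as a normal score (p of 0.0264) and adjusted over all tested genes. Klf15 is also expressed outside bone cells, and the part in its values of the adipocyte and muscle markers given above was not tested.

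None of the 11 listed genes that take up and activate fatty acids was called. Fabp4, called higher at 319 FPKM in running and 220 FPKM in sedentary mice, was counted among the adipocyte markers instead. Cd36, a fatty acid receptor and transporter, had 64.8 FPKM (53.0 to 76.7) in running and 53.1 FPKM (43.0 to 63.1) in sedentary mice, with a p of 0.0078 and a q of 0.358 in the authors' deposited table. Acsl1, an acyl-CoA synthetase, had 58.5 FPKM in running and 55.2 FPKM in sedentary mice. The list of 11 had a median log2 fold of 0.10. Among energy-sensing and transcriptional regulators, Rxra, the partner of the PPAR receptors, had 12.8 FPKM in running and 10.8 FPKM in sedentary mice (q of 0.775 in the authors' deposited table). Prkaa2, a catalytic subunit of AMP-activated kinase, had 1.399 FPKM in running and 1.099 FPKM in sedentary mice (q of 0.842 in the authors' deposited table). Ncor1, a corepressor and the most expressed gene of that list, had 74.6 FPKM in running and 80.3 FPKM in sedentary mice.

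The remaining lists held no call. Angptl4, which several PPAR receptors induce, belongs to the regulator list and had 18.2 FPKM in running and 17.6 FPKM in sedentary mice. In fatty acid synthesis, Acly, which makes cytosolic acetyl-CoA, had 44.2 FPKM in running and 47.9 FPKM in sedentary mice. In lipolysis and lipid droplets, the droplet coat gene Plin2 had 52.5 FPKM in running and 53.0 FPKM in sedentary mice. The most expressed gene of other peroxisomal oxidation, Scp2, had 131 FPKM in running and 138 FPKM in sedentary mice. Of other mitochondrial acyl-CoA enzymes, Hsd17b10 led at 39.6 FPKM in running and 38.6 FPKM in sedentary mice. Oxct1, which starts ketone body use, had 39.7 FPKM in running and 40.2 FPKM in sedentary mice, and the other ketone genes of its list were also uncalled. Fgf21, a hormone of fasting in liver, was listed at 0 in both groups.

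**Figure D4:**
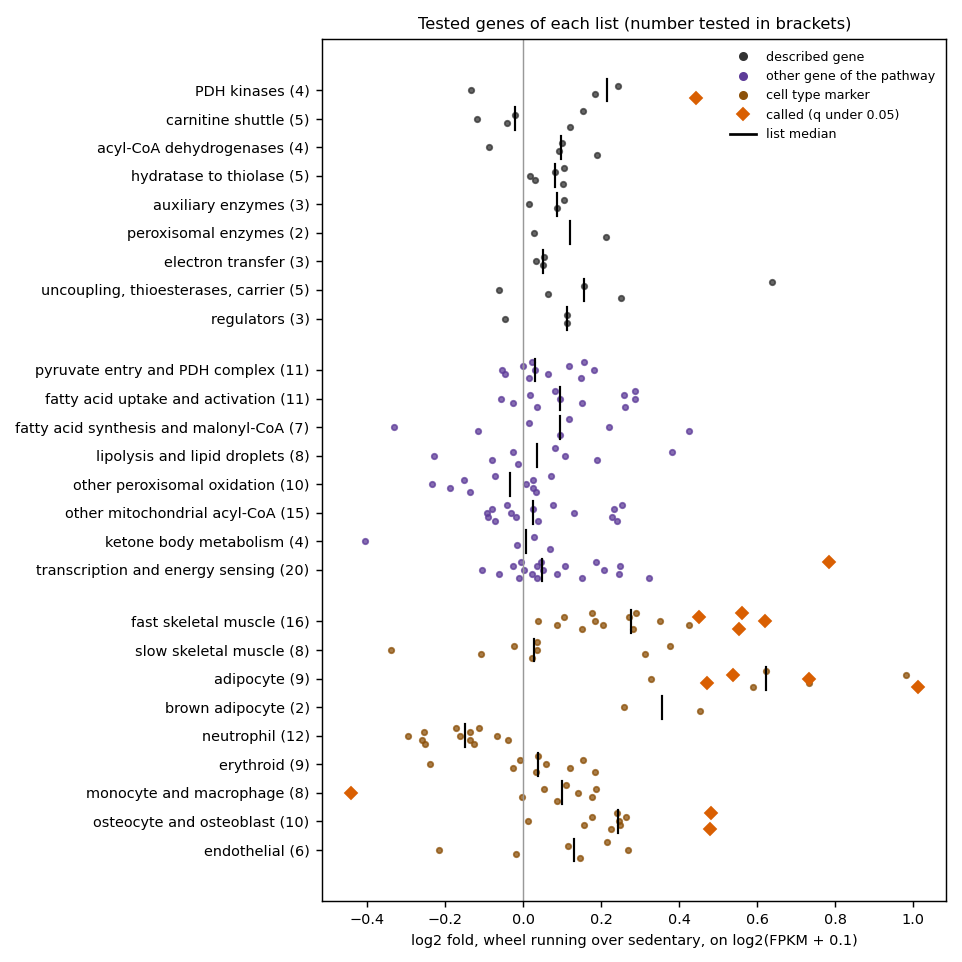
Log2 fold of every tested gene, running against sedentary, as log2(FPKM + 0.1), by list: the genes described here by role, other genes of the pathway, and cell type markers, with a bar at each list median. Orange diamonds are calls. Pdk4 and Klf15 are the calls among the described genes and the other pathway lists, and the adipocyte list has the highest median (0.62).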

How the data were processed

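Polyadenylated RNA was extracted with TRIzol and made into libraries with a directional NEBNext Ultra kit, as the labels' protocols say. Cufflinks 2.2.1, HISAT2 2.2.1, Trimmomatic 0.39, SAMtools 1.10 and build GRCm38 are listed, without roles, per the submitters' processing notes. No source states whether strand was used in counting. For each gene the deposited tables give, per the file headers, an FPKM and its bounds in either group, a log2 fold, a test statistic (score), a p-value and an adjusted q-value; column names are those of Cuffdiff. The files hold 0 columns of single libraries. Replicates are separate mice, per the design text.

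Computed here with Python 3.11.15 and pandas 2.3.3 were log2(FPKM + 0.1) folds, list counts and medians, kinase shares, and calls under other thresholds. Calls are the authors' q under 0.05. Depth was estimated from single-exon genes over 1500 bases, shortened by 250 bases, with each group's FPKM taken as a mean over 3 scaled libraries. Coordinates are GENCODE vM21, matched by ID for 55138 genes. Windows of 50 bases were compared between GENCODE transcripts on the same strand. Promoters are RefSeq's (GRCm38.p6), with 31 of the 36 members matched. Of 213 listed symbols, 1 had no row. A pathway gene is not reported here and stands outside the list counts.

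The members and all lists were chosen with earlier results of these data known. All members are named. Other pathway genes are named where called, where their unadjusted p is under 0.05, or as the most expressed of a list. Markers are named where called or listed at 0 in a group. Pdp1, Pdp2, Mpc1, Acsl1, Angptl4, Fgf21, S100a9, Bglap and Lep were added after their values were seen. Set tests were not run.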

Additional observations from a re-analysis of the deposited data

How the results depend on the processing

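No paired analysis was possible because no deposited column belongs to a single mouse. Fits that leave out 1 library each were not run either, since mice are pooled within groups, and a value that rests on 1 mouse would not show. Among members, Pdk4 was the 1 call, and 0 were called with q under 0.01, with q under 0.05 and separate intervals, or with q recomputed from a normal p of the deposited statistic, an alternative chosen after seeing the data. The other pathway gene called, Klf15, gave a count of 1 with q under 0.01, 0 with separate intervals and 0 with the normal p. Over all genes, 146 calls became 69 with separate intervals and 25 with the normal p. The first 2 settings keep a part of the same calls; for the normal p, the cause was not tested. With q under 0.1, with adjustment over genes of FPKM of at least 1 and with that filter and the deposited q, the member count stayed at 1. The difference in the share of Pdk4, 5.96 points, ran from -16.0 to 27.4 at opposing interval bounds, and that of Cpt1a, 0.59 points, from -19.3 to 22.3. The member median of 0.09 ran from 0.08 to 0.13 over the other pseudocounts, scalings and filters, the highest after rescaling to the same total FPKM, which adds 0.04 to log2 folds. Of 278 alternative gene folds, 272 moved by less than 0.1 or, for a called gene, kept their sign; the other 6 are pseudocount settings of Ucp3, Ppara, Ppargc1a and Prkaa2, genes at low FPKM. The medians of the lipolysis and other peroxisomal lists, 0.03 and 0.0065 over all their genes, turned to -0.01 and -0.03 over genes of FPKM of at least 1.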

Other observations

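Members tended to stand above the middle of expressed genes: their median level was at the 71.2nd percentile of tested genes in running mice and at the 68.8th in sedentary mice. Among the 31 members with a RefSeq promoter, 19 (61.3%) held GGGCGG in the 250 bases before a start, against 35.4% of 27025 genes, and 15 (48.4%) held ATTGG, against 37.5%. AGGTCA was found in 5 of the 31 (16.1%), against 15.8% of genes, and AGAACA in 4 (12.9%), against 18.2%. CACGTG was found in 1 of the 31 (3.23%), against 6.86% of genes, and TGTTTAC in 0, against 3.54%. These are shares of letters in fixed windows, given with no test.

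Hadhb shares 62.4% of its 50-base windows with other annotated genes, 61.5% with Gm13910 alone, a symbol under which no level was found. Fabp3 shares 29.2% with Fabp3-ps1, which stood at 1.72 FPKM in running and 1.39 FPKM in sedentary mice. No shared window was found for 23 of the 36 members, and Pdk4 shared 1.43% of its windows.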
